A study of Mus musculus with 2 samples.

Results

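The G1 regulators described here are 10 genes that decide whether a cell leaves quiescence: the D cyclins Ccnd1, Ccnd2 and Ccnd3, their kinases Cdk4 and Cdk6, the CDK inhibitors Cdkn1a, Cdkn1b and Cdkn2d, and the pocket proteins Rb1 and Rbl2. Their probe sets were chosen by gene symbol, taking each probe set whose annotation gave exactly 1 of these names. The rule found 23 of the 20380 probe sets that named 1 gene, and each of the 10 genes, of 12393 in all, had at least 1. The cells were B cells displaying surface IgM together with IgD, a phenotype typical of mature naive cells, sorted from the spleens of mice with no genetic modification. The study was designed to set cells deficient in serum response factor (SRF) against such wild-type cells, and 2 wild-type arrays were analysed here, so no genotypes were compared. The labels give no strain, age or sex, nor do they tell whether separate mice were used. Replicate 1 and replicate 2 are names in accession order, and the spread between them may be technical.

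In a resting cell the pocket proteins hold E2F transcription factors in check and keep the genes of DNA replication silent. Mitogens, which for a B cell include antigen, induce D cyclins, which activate Cdk4 and Cdk6 to phosphorylate the pocket proteins and release E2F. CDK inhibitors oppose this step, Cdkn2d by binding Cdk4 and Cdk6, and Cdkn1a and Cdkn1b by binding cyclin and CDK complexes. Mature naive B cells are a quiescent population that enters the cell cycle on stimulation, and cyclin D2 and cyclin D3 are the D cyclins best known in the B lineage.

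The values are signal intensities of the MAS5 algorithm on a linear scale, which combines the probes of a probe set to 1 signal. A floor for each array was taken from 57 genes that are characteristic of organs outside the immune system, among them liver, brain and testis, as the 90th percentile of the signal of their 87 probe sets. It was 154.8 on replicate 1 and 106.8 on replicate 2, and by construction about 10% of those probe sets exceed it on an array. Signals of different probe sets depend on how well the probes bind and are not compared as amounts of RNA. Differences are on the log2 scale, replicate 1 minus replicate 2, so that a positive value means a higher signal on replicate 1. Pooled over probe sets, the SD of the log2 signal between the arrays was 0.63, or 1.55-fold, for the 5028 probe sets above the floor on both. With 2 samples of 1 group no test was possible and no p-value is given.

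The median signal over all gene probe sets was 103 on replicate 1 and 66.6 on replicate 2, although both arrays had been scaled to nearly the same trimmed mean, 150.0 and 150.1. The 3′ to 5′ signal ratio of the control mRNA of Actb was 3.57 on replicate 1 and 8.15 on replicate 2. For Gapdh it was 1.31 on replicate 1 and at least 7.72 on replicate 2, where the 5′ signal was below the floor and was set to it. The ratio of 3′ to middle signal was 4.23 on replicate 1 and 3.07 on replicate 2 for Actb, and for Gapdh 1.08 on replicate 1 and at least 7.72 on replicate 2, where the middle signal was below the floor too. The part of these array differences in the differences below was not tested. The B cell label held on both arrays, as 8 of 8 measured B cell markers, Cd22, Cd79b and Ighm among them, were above the floor on each. Of these 8, Cd79a was 15.3-fold higher on replicate 1, with 2931 and 192, and Cr2 was 2.42-fold higher on replicate 2, with 940.3 and 2275. Of 49 measured markers of 8 other cell types, 6 were above it on both arrays. These were Csf1r and Lyz2 of monocytes and macrophages, S100a8, S100a9 and Ngp of neutrophils, and Tfrc, the transferrin receptor gene, which was listed as erythroid and is also used by other dividing cells. No T cell, NK cell, dendritic, platelet or stromal marker was above the floor on both. The summed signal of each of these 8 other cell types was higher on replicate 1, the array with the higher median signal. It was 391 on replicate 1 and 284 on replicate 2 for T cells, 469 and 367 for NK cells, 971 and 948 for neutrophils and 1483 and 894 for monocytes and macrophages. It was 762 and 386 for dendritic cells, 937 and 399 for erythroid cells, 447 and 217 for platelets and 1086 and 285 for stroma and endothelium. These sums include signals under the floor. For the B cell markers the sum was higher on replicate 2, with 34706 on replicate 1 and 45451 on replicate 2.

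Promoter sequences were matched for 7 of the 10 genes, all but Ccnd1, Ccnd2 and Rb1, and those of Cdk4, Ccnd3 and Cdkn1b are shown because these are a kinase and a D cyclin above the floor and an inhibitor below it on at least 1 array. Each is the 250 bases before an annotated transcript start, on the strand of the gene, from RefSeq's annotation of GRCm38.p6. Capitals mark matches to the motifs searched. These were the E-box CACGTG, the GC box GGGCGG, the CCAAT word, the forkhead word TGTTTAC, the CArG box bound by SRF, and the E2F-type words TTTCGCGC, TTTGGCGC, TTTCCCGC and TTTGCCGC, all on both strands.
Cdk4, chr10:127063285-127063534, plus strand: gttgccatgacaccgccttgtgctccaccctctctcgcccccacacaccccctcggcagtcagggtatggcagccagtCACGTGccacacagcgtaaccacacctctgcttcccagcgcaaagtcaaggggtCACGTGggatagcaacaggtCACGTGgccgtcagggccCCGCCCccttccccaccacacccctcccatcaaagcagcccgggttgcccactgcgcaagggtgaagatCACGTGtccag
Ccnd3, upstream start, chr17:47504801-47505050, plus strand: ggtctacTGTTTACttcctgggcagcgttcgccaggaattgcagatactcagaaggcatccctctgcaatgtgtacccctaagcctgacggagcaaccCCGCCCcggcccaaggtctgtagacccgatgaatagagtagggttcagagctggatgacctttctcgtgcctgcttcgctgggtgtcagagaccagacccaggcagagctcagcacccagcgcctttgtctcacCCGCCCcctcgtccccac
Ccnd3, downstream start, chr17:47593217-47593466, plus strand: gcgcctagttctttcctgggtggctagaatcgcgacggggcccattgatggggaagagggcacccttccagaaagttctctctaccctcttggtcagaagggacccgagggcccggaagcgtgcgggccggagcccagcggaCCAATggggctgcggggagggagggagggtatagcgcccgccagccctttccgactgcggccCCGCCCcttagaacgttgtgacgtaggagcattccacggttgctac
Cdkn1b, chr6:134920151-134920400, plus strand: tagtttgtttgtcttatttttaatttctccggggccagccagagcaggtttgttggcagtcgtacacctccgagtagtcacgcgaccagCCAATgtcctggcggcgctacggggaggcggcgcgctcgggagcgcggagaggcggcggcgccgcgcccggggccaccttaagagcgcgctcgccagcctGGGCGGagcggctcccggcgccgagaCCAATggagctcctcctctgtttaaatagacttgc

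The Cdk4 window held 4 copies of CACGTG, the E-box bound by MYC and related factors, and 1 GC box, and the Cdk6 window held 1 CACGTG. At least 1 CACGTG lay in 6.02% of the 32851 promoter windows of this length, and 4 or more in 7 of them. The threshold of 4 equals the count in the Cdk4 window, which is 1 of these 7. No such threshold was counted for the other motifs, so the 7 are not an independent measure of rarity. The Cdkn1b window held 2 CCAAT words and 1 GC box, and the 2 windows of Ccnd3 held 2 GC boxes and 1 TGTTTAC, and 1 GC box and 1 CCAAT. The background shares were 32.7% for the GC box, 33.8% for CCAAT and 3.17% for TGTTTAC. None of the 9 windows of the 7 genes held a CArG box, which was present in 1.47% of all windows, or any of the 4 E2F-type words, present in between 0.256% and 0.895%. A match of letters is a description of the window and does not show that a factor binds there.

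Of the 23 probe sets, 9 were above the floor on both arrays, against 24.7% of all probe sets naming 1 gene. They belonged to 5 of the 10 genes, Ccnd1, Ccnd2, Ccnd3, Cdk4 and Rb1, against 30.4% of all genes. A gene passes by any of its probe sets, so a gene with more of them passes more readily. The 10 genes had 23 probe sets, and all 12393 genes had 20380. A further probe set, of Cdkn1b, was above the floor of replicate 1 alone, 3, of Ccnd2 and Rbl2, were above that of replicate 2 alone, and 10 were above neither. Replicate 1 thus had 10 of the 23 above its floor, against 34.8% of all, and replicate 2 had 12, against 36.7%. Signals of the 23 ran from 7.10 to 299 on replicate 1, with a median of 144, and from 3.0 to 1114 on replicate 2, with a median of 107. Several sat close to the floor: 5 of the 23 came within 1.1-fold of it on at least 1 array. Just inside on both arrays were Cdk4 by 1422440_at, with 155.3 on replicate 1, and Ccnd1 by 1448698_at, with 110.1 on replicate 2. Just outside were Ccnd2 by 1434745_at, with 153.8 on replicate 1, and Rbl2 by 1425981_a_at, with 144.1 on replicate 1.

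**Figure D1:**
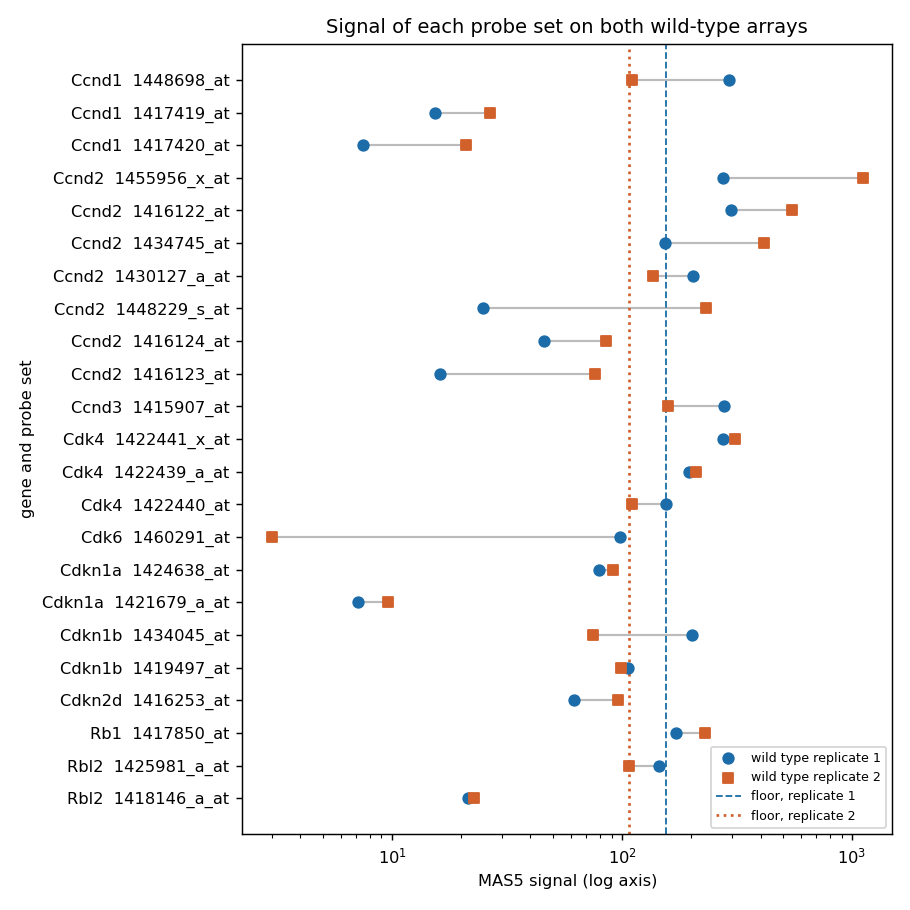
MAS5 signal (log axis) of each of the 23 probe sets on wild type replicate 1 (circles) and wild type replicate 2 (squares), 1 array each, with the floors of 154.8 and 106.8 as vertical lines. Ccnd2, Ccnd3, Cdk4 and Rb1 have probe sets right of both lines, while the inhibitors Cdkn1a and Cdkn2d lie left of both.

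Ccnd2, the D cyclin that antigen receptor signals induce in mature B cells, had the most probe sets, 7, and they did not give the same picture. Probe set 1416122_at gave 299.0 on replicate 1 and 548.8 on replicate 2, averaging 424 ± 177 (SD, n = 2), and 1455956_x_at gave 273.5 and 1114.3, averaging 694 ± 595 (SD, n = 2). The third above both floors, 1430127_a_at, gave 203.0 on replicate 1 and 136.7 on replicate 2, averaging 169.9 ± 46.9 (SD, n = 2). Ccnd2 was thus above the floor in both samples by 3 probe sets, of which 2 were higher on replicate 2 and 1 on replicate 1. Probe sets 1434745_at, with 153.8 and 412.2, and 1448229_s_at, with 24.8 and 230.8 on replicates 1 and 2, passed the floor of replicate 2 alone. Set against the floor of replicate 1, the signals on replicate 2 were at least 2.66-fold and at least 1.49-fold higher. The other probe sets of Ccnd2, 1416124_at with 45.8 and 85.3 and 1416123_at with 16.1 and 76.0, lay under both floors. Counted without a floor, 6 of the 7 were higher on replicate 2, against 41.7% of all probe sets. The probe set with the largest difference above both floors, 1455956_x_at, was 4.07-fold higher on replicate 2 and carries the _x_at suffix, a class whose probes can bind other transcripts.

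Ccnd3, the D cyclin needed for expansion of pre-B cells and of germinal centre B cells, was measured by 1 probe set and was above both floors. It gave 278.4 on replicate 1 and 158.0 on replicate 2, averaging 218 ± 85.1 (SD, n = 2). The log2 difference was 0.82, smaller than the pooled SD of a difference between the arrays, 0.89. With median centring it was 0.18. Ccnd1, the D cyclin of many epithelial and fibroblast lines, rested on 1 of 3 probe sets. Probe set 1448698_at gave 291.5 on replicate 1 and 110.1 on replicate 2, averaging 201 ± 128 (SD, n = 2), and was 2.65-fold higher on replicate 1. The others were far below the floor on both arrays, 1417419_at with 15.4 and 26.7 and 1417420_at with 7.50 and 21.0 on replicates 1 and 2. Signal above the floor for Ccnd1 was therefore seen by 1 of its 3 probe sets, which on replicate 2 lay at 1.03 times the floor and was not above the 95th-percentile floor.

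Cdk4, the catalytic partner of the D cyclins, was the only gene of the 10 measured by more than 1 probe set that had all of them above the floor on both arrays. Probe set 1422441_x_at gave 275.3 on replicate 1 and 308.8 on replicate 2, averaging 292 ± 23.7, and 1422439_a_at gave 195.7 and 209.8, averaging 203 ± 9.97 (SD, n = 2). The third, 1422440_at, gave 155.3 and 111.0, averaging 133 ± 31.3 (SD, n = 2), close to both floors. The log2 differences of the Cdk4 probe sets ran from -0.17 to 0.48, within the pooled SD of a difference, 0.89. Their mean was 0.07, while with median centring they ran from -0.80 to -0.15. Cdk6, the other kinase that D cyclins activate, had 1 probe set, 1460291_at, with 98.0 on replicate 1 and 3.0 on replicate 2. Both signals were below the floor, so no fold was taken between them.

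**Figure D2:**
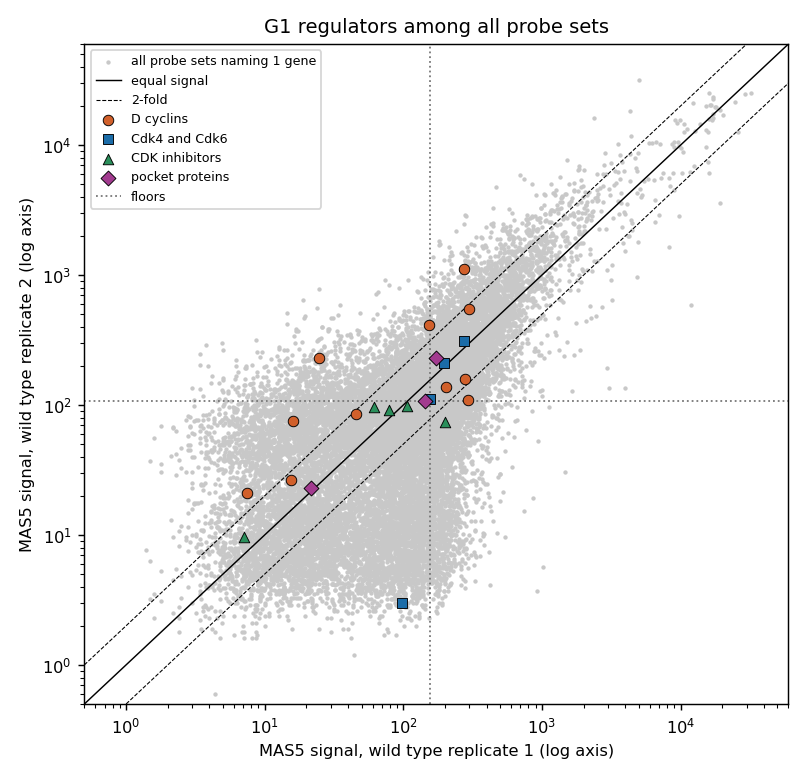
MAS5 signal on wild type replicate 1 (horizontal log axis) against wild type replicate 2 (vertical log axis) for 20380 probe sets (grey) and the 23 of the G1 regulators (coloured by role), 1 array each. Dotted lines mark the floors of 154.8 and 106.8. The 3 Cdk4 probe sets lie near the line of equal signal, and most Ccnd2 probe sets lie above it.

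None of the 3 CDK inhibitor genes was above the floor on both arrays, against 30.4% of all genes. So few genes cannot be told apart from that share. Cdkn1b encodes p27, an inhibitor typical of quiescent lymphocytes whose amount is set largely by protein turnover. Its probe set 1434045_at gave 201.0 on replicate 1, above the floor, and 74.5 on replicate 2, below it, which makes replicate 1 at least 1.88-fold higher. The other, 1419497_at, gave 106.1 and 99.0 and lay under both floors, averaging 103 ± 5.02 (SD, n = 2). Cdkn1b thus passed the floor by 1 of 2 probe sets and on 1 of 2 arrays. Cdkn1a encodes p21, an inhibitor induced by p53, and gave 79.5 and 91.1 by 1424638_at and 7.10 and 9.60 by 1421679_a_at on replicates 1 and 2. Cdkn2d encodes p19, an inhibitor specific to Cdk4 and Cdk6, and gave 62.0 on replicate 1 and 96.2 on replicate 2 by 1416253_at, its only probe set. Both genes were below the floor on each array, which does not show that their mRNA was absent.

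Rb1, the retinoblastoma protein gene, was above the floor in both samples. Its only probe set, 1417850_at, gave 171.3 on replicate 1 and 228.9 on replicate 2, averaging 200.1 ± 40.7 (SD, n = 2). The log2 difference of this probe set was -0.42, and -1.05 with median centring. On replicate 1 it lay at 1.11 times the floor, and with the floor at the 95th percentile, 241.5 on replicate 1 and 147.3 on replicate 2, it was no longer above it. Rbl2 encodes p130, the pocket protein that prevails in quiescent cells and joins E2F4 in the DREAM repressor complex. Probe set 1425981_a_at gave 144.1 on replicate 1, below the floor, and 107.1 on replicate 2, just above it, averaging 126 ± 26.2 (SD, n = 2). The other Rbl2 probe set, 1418146_a_at, gave 21.5 and 22.8 and lay under both floors. Rb1 was thus above the floor on each array and Rbl2 on replicate 2 alone, by a margin within 1.1-fold.

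Between the arrays, 7 of the 9 probe sets above both floors lay within 2-fold. The exceptions were 1448698_at of Ccnd1, 2.65-fold higher on replicate 1, against 9.63% of all probe sets above both floors that were over 2-fold higher there, and 1455956_x_at of Ccnd2 on replicate 2, against 14.8%. These are 1 of 9 in each direction, near the shares of all probe sets. The median log2 difference over all 23 was -0.20, beside 0.32 over the 20380 probe sets. Over the 9 above both floors it was -0.10, near the -0.05 over all 5028 such probe sets. Counting every probe set whatever its signal, 3 of the 23 were over 2-fold higher on replicate 1, against 34.2% of all, and 5 on replicate 2, against 19.5%. By any amount, 8 of the 23 were higher on replicate 1 as deposited, against 58.2% of all, and 15 on replicate 2, against 41.7%. Ccnd2 alone supplied 6 of these 15. After quantile normalization 6 of the 23 were higher on replicate 1 and 17 on replicate 2, and after centring on the array median 4 and 19. The shares of all probe sets under these scalings were not counted. The median over all probe sets moved to -0.06 with quantile normalization and -0.31 with centring. Over those above both floors it was -0.01 and -0.68. Signs that changed with the scaling were those of 1430127_a_at of Ccnd2, 1422440_at of Cdk4, 1419497_at of Cdkn1b and 1425981_a_at of Rbl2, whose differences as deposited lay between 0.10 and 0.57. For 1430127_a_at and 1422440_at only median centring turned the sign.

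Of the 10 genes, 2 had more than 1 probe set above both floors, Ccnd2 and Cdk4. In both the probe sets differed in opposite directions between the arrays as deposited. Over all 905 such genes the share was 51.9%. With median centring 1430127_a_at of Ccnd2 (-0.06) and 1422440_at of Cdk4 (-0.15) turned, so that neither gene had opposite directions. The share of all such genes after centring was not counted. Probe set 1422440_at also lay close to both floors. Where probe sets lie along their transcripts was not used here.

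**Figure D3:**
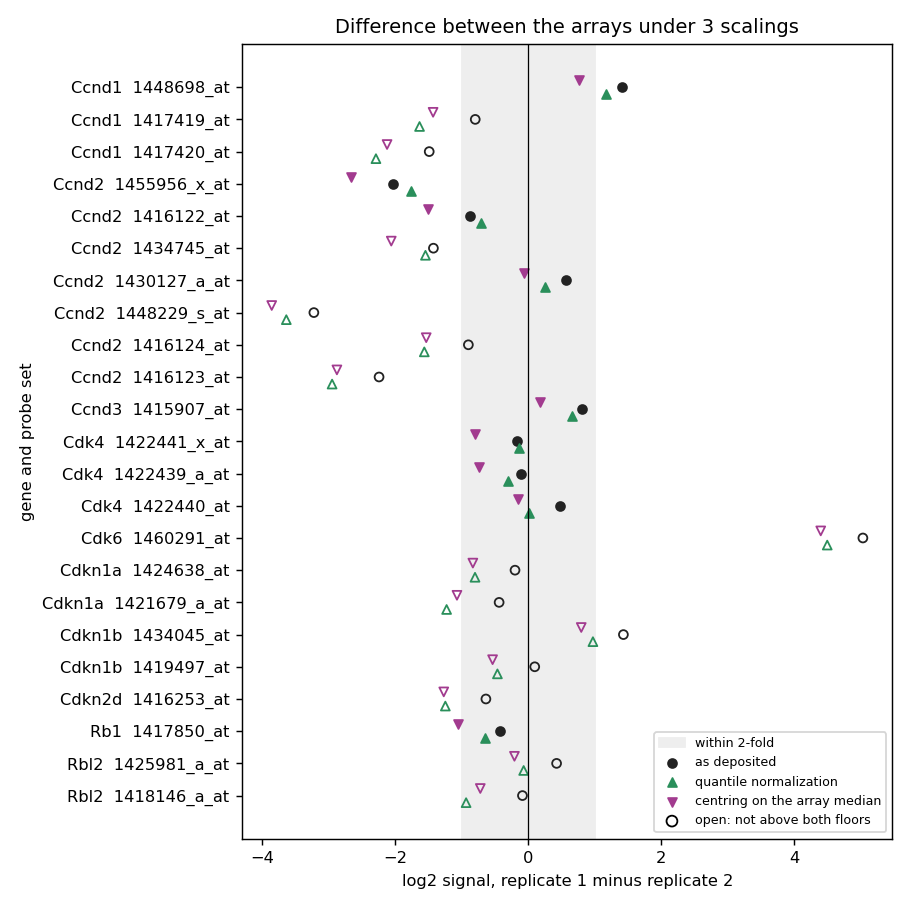
Log2 signal of wild type replicate 1 minus wild type replicate 2 for each probe set, as deposited (circles), after quantile normalization (upward triangles) and after centring on the array median (downward triangles), with open symbols for probe sets not above both floors. Grey marks differences within 2-fold. Of the 7 Ccnd2 probe sets, 6 lie left of 0 as deposited and after quantile normalization, and 7 after median centring.

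Other genes of the G1 pathway were examined in 8 lists. Of their 66 measured genes 21 were above the floor on both arrays, or 31.8%, against 30.4% of all genes. By the brightest probe set of each, 3 of the 21 (Cks2, Klf2 and Mdm2) exceeded 2-fold towards replicate 1. The share was 9.05% of the 3735 genes whose brightest probe set was above both floors. Another 3 (Rbbp4, Ccnh and Cul1) did so towards replicate 2, against 15.2% of those 3735. With median centring the log2 differences were 0.45 for Cks2, 0.71 for Klf2 and 0.74 for Mdm2, all within 2-fold. Those of Rbbp4, Ccnh and Cul1 were then -2.73, -2.36 and -1.64. After quantile normalization Cks2 (0.96) and Cul1 (-0.76) were within 2-fold. The counts for these lists under other scalings were not made. Among 5 other CDK inhibitors and pocket proteins, Cdkn1c, Cdkn2a, Cdkn2b, Cdkn2c and Rbl1, 0 were above the floor on both arrays. Cdkn2b passed it on replicate 1 alone, with 243.4 there and 14.6 on replicate 2. Rbl1 and Cdkn2c passed it on replicate 2 alone, with 170.1 and 110.8 there and 122.4 and 135.1 on replicate 1. Of 6 genes for E and A cyclins, Cdk2 and Cdc25a, which act after the D cyclins at entry into S phase, 0 were above it on both, and the Cdk2 signals were 232.3 on replicate 1 and 84.3 on replicate 2. Of 7 E2F and DP genes only E2f4 was, the E2F that pairs with p130 in quiescent cells, with 242.9 on replicate 1 and 123.8 on replicate 2, averaging 183 ± 84.2 (SD, n = 2). E2f1, an activator of S phase genes, gave 118.9 and 105.0 by 1431875_a_at, below both floors, and 190.7 and 5.1 by 1417878_at, above the floor of replicate 1 alone.

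Among MuvB core genes and Mybl2, which encodes B-Myb, 1 of 4 was above both floors, against 30.4% of all genes. It was Rbbp4, a histone chaperone that is shared with other complexes, with 624.0 on replicate 1 and 2668.2 on replicate 2 by an _x_at probe set. Another Rbbp4 probe set, 1454875_a_at, went the other way with 235.1 and 81.9. Of 4 genes around the CDK-activating kinase and cyclin C only Ccnh, its cyclin, was above both floors. Its probe set 1456293_s_at was 3.31-fold higher on replicate 2, with 203.5 on replicate 1 and 673.3 on replicate 2, while 1418584_at gave 221.5 and 267.1. For the genes of protein turnover in G1 it was 6 of 12, against the same 30.4%. Skp1 gave 330.1 on replicate 1 and 417.4 on replicate 2, Cul1 gave 332.5 and 669.3, Fbxw7, a receptor for cyclin E, gave 238.7 and 224.7, and Ddb1 gave 283.8 and 228.9. Skp1 is an adaptor of the same kind of ligase as Cul1, and Ddb1 one of Cul4 ligases. Cul1, the scaffold of the ligase that degrades p27, was 2.01-fold higher on replicate 2, and Cks2 was 2.12-fold higher on replicate 1, with 319.4 and 150.7. Skp2, which recruits p27 to that ligase, was above the floor on both by 0 of its 6 probe sets.

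Upstream regulators were above the floor in 6 of 9 cases. Foxo1, a transcription factor of quiescent B cells that can activate Cdkn1b, gave 1032 on replicate 1 and 1368 on replicate 2 by 1416981_at, averaging 1200 ± 237 (SD, n = 2). A second Foxo1 probe set, 1416983_s_at, was 2.03-fold higher on replicate 2, with 668.7 and 1357.9. Klf2, a quiescence factor of lymphocytes, was 2.54-fold higher on replicate 1, with 6552 and 2579. Mdm2, the ligase of p53, was 2.59-fold higher there, with 335.5 and 129.4, while Bcl6, a repressor in germinal centre cells, gave 323.3 and 532.6. Myc, whose product can bind CACGTG, gave 660.7 on replicate 1, above the floor, and 77.3 on replicate 2, below it.

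Genes of S phase and mitosis were above both floors in 6 of 19 cases, close to the share of all genes. The 6 were Pcna and the helicase genes Mcm2, Mcm4, Mcm5, Mcm6 and Mcm7. Pcna, the sliding clamp of replication that also serves DNA repair, gave 1146 on replicate 1 and 932 on replicate 2. By the brightest probe set, Mcm7 gave 538.0 and 704.6, Mcm4 gave 311.1 and 175.4 and Mcm2 gave 186.2 and 214.1. Other probe sets went the other way, 1416031_s_at of Mcm7 with 168.4 and 126.7, 1436708_x_at of Mcm4 with 48.8 and 249.6 and 1434079_s_at of Mcm2 with 157.7 and 147.0. Probe sets 1439269_x_at and 1416030_a_at of Mcm7 were higher on replicate 2 and not above both floors. Markers of mitosis were not above both floors. Mki67, a marker of cycling cells, gave 40.4 on replicate 1 and 3.30 on replicate 2, Cdk1, the mitotic kinase, gave 21.5 and 8.10, and Birc5 gave 6.40 and 13.1. Aurka and Plk1 were above the floor of replicate 1 alone, with 230.6 and 162.7 there and 43.4 and 8.90 on replicate 2.

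**Figure D4:**
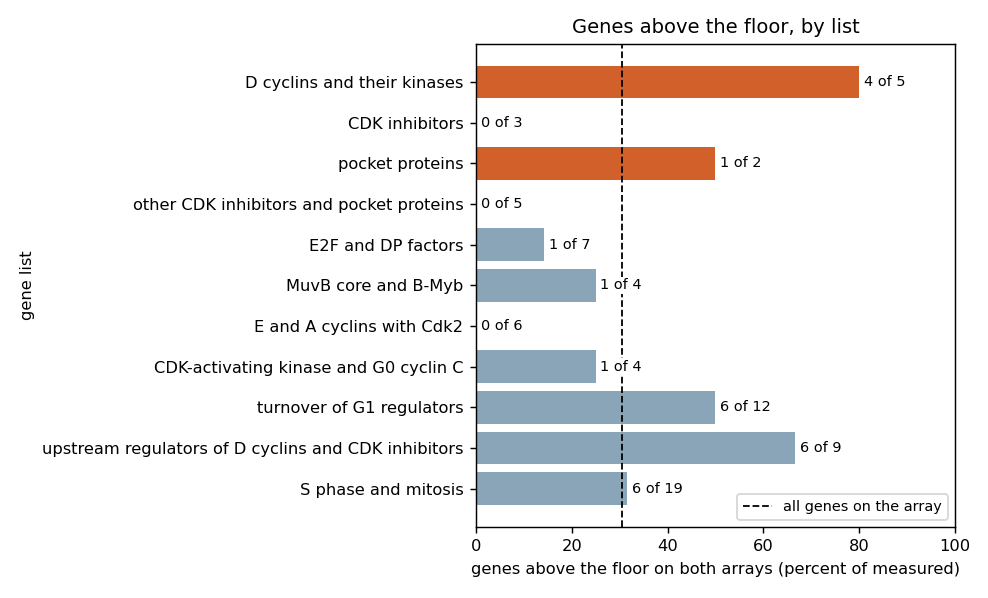
Percent of the measured genes of each list with at least 1 probe set above the floor on both wild-type arrays, in orange for the 10 G1 regulators and in blue-grey for the other lists, with the count beside each bar and a dashed line at 30.4% for all genes. The D cyclins and their kinases had 4 of 5, and the CDK inhibitors 0 of 3.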

How the data were processed

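Gene expression was measured in 2 samples of wild-type IgM+IgD+ spleen B cells, 1 array each, and both were placed in the group by their label for genetic modification. Biotinylated cRNA was made from 6 µg of total RNA, per the labels' protocols. The deposited table holds linear signal intensities. The submitters' processing notes name MAS5, without a version or settings, and detection calls were not used here. Of 22690 rows, 64 control probe sets were left out of gene results, and of the other 22626, 20380 named 1 gene, 691 several and 1555 none in the platform annotation. A gene passed the floor where any of its probe sets did so on both arrays. Precision is limited by the number of arrays, 2. Shares, folds and differences were computed with Python 3.11.15 and pandas 2.3.3. The call rules were run on simulated data with less noise than these arrays and with changes placed well above the floor. That simulation does not measure how reliable calls near the floor are. Values were recomputed with the floor at the 95th percentile, at the median of the array or omitted, after quantile normalization or median centring, as log2(signal + 32), without _x_at and _s_at probe sets, as means over probe sets, and on each array alone. Every probe set of the 10 genes is named, and of the other lists the brightest genes above both floors and those over 2-fold apart, with a few others named after their values were seen. The genes and lists were chosen with earlier results of these data known.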

Additional observations from a re-analysis of the deposited data

How the results depend on the processing

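Counts near the floor depended on where it was set. With a 95th-percentile floor 4 probe sets and 3 of the genes were above it on both arrays, against 9 and 5, with Ccnd1 and Rb1 lost, and 12 pathway genes against 21. A floor at the array median gave 36 pathway genes, and 13 probe sets of 7 genes. The shares of all probe sets and of all genes above these floors were not counted, so whether they moved alike is not known. With each array alone, 10 to 12 probe sets, 6 genes and 34 to 35 pathway genes were above the floor. Of probe sets over 2-fold apart, 1 was higher on replicate 1 and 1 on replicate 2. Without a floor the counts were 3 and 5, against 34.2% and 19.5% of all probe sets, and with a floor at the array median 2 and 2. With median centring they were 0 and 3, and with the 95th-percentile floor 0 and 1. The shares of all probe sets under the other alternatives were not counted. Leaving out _x_at and _s_at probe sets left 0 higher on replicate 2. The median log2 difference over the 23 probe sets, -0.20, was -0.83 with median centring and between -0.71 and -0.14 under the other alternatives. By its mean over all probe sets, the Ccnd1 difference turned to -0.29, against 1.40 by its brightest. That mean includes the 2 probe sets under both floors, with differences of -0.79 and -1.49. The mean over the 3 Ccnd2 probe sets above both floors was -0.78, against -2.03 by the brightest. The cause of these changes was not tested. No paired analysis was possible because there is 1 group. Signal near or below the floor limits what can be said of Ccnd1, Rb1, Cdkn1a, Cdkn1b, Cdkn2d, Cdk6 and Rbl2.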
